A study of Mus musculus with 4 samples.

Results

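Chemokines and their receptors were examined in immature granulocytes, precursors of neutrophils, which had been sorted out of the marrow of male C57BL/6 mice. The cells came from wild-type mice (WT, 2 samples) or from miR-223 KO mice (KO, 2 samples), which lack a microRNA that is abundant in myeloid cells. Total RNA of each sample was labelled with Cy3 and measured on its own on a 1-colour mouse array of the whole genome. The labels give no age, treatment, sorting markers or number of animals, and neither the deleted stretch of the miR-223 gene nor whether the deletion is limited to some cells, so the p-values reflect how much these particular samples vary, and that variation may be technical. A member was any gene whose probe name is Ccl, Cxcl, Ccr or Cxcr with a number, leaving out a pair of receptors, or one of Il8rb, Ccrl2, Cx3cl1, Xcl1 and Xcr1. This gave 53 of the 27630 genes on the array, read by 67 probes. No probe carried the older name Il8rb, and the same receptor was present as Cxcr2. Members were divided by cells known to carry or make them. The lists were neutrophil (10 genes), monocyte (13), stromal (16) and lymphoid (13), with Ccr1l1 in no list. Their names are loose: of the myeloid ligands of Ccr1, Ccl3 and Ccl6 stand in the neutrophil list and Ccl9 in the monocyte list. There were 18 receptors and 35 ligands.

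Chemokines are small secreted proteins that guide leukocytes along gradients, and their receptors are proteins of the G protein-coupled family that pass the signal on through Gi proteins. In bone marrow, Cxcl12 from stromal cells holds neutrophils back through Cxcr4, while ligands of Cxcr2 draw mature neutrophils into the blood. Neutrophils and monocytes also make chemokines themselves, among them ligands of Ccr1 and of Cxcr2, and many of these genes are switched on rapidly through the transcription factor NF-kB. miR-223 lowers transcripts that pair with its seed, bases 2 to 8 of the mature strand.

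The mature strand of miR-223 (mmu-miR-223-3p, RefSeq, GRCm38.p6, plus strand, chrX:96242884-96242905) is shown because the genotypes differ in it, with the seed in capitals. Beneath it stands the first 30-base stretch of the 60-base Ccl3 probe, which is in the sense of the transcript, with its match to the seed followed by A in capitals (bases 5 to 12 of the probe).
mmu-miR-223-3p: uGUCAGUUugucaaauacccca
Ccl3 probe: catgAACTGACAaatgtacaatagatgctt
This 8-base match, AACTGACA, was found in 1 of the 67 member probes, that of Ccl3, and in 0.136% of all 41174 probes on the array. Its inner 6 bases, ACTGAC, occurred in no other member probe and in 1.41% of all probes. Whether this stretch lies in a coding or untranslated part of Ccl3 was not examined, and a probe covers only part of a transcript, so a probe with no match says nothing of the rest.

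The NF-kB consensus was searched on both strands of RefSeq promoters (250 bases before to 50 after a start site, GRCm38.p6), since several members are known targets of that factor. Of the 39 members with a promoter in the table, 10 (25.6%) held a match, against 6.55% of all 27025 genes. Among the tested members with a promoter the count was 6 of 21 (28.6%): Cxcl2 and Ccrl2 of the neutrophil list, Ccl9 and Cxcl10 of the monocyte list, Ccr6 and Ccl27a. The stretches below have the match in capitals and are given because their genes lie close together on a chromosome or are taken up again below.
Cxcl2, chr5:90903792-90903821, plus strand: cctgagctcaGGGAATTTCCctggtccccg
Cxcl1, chr5:90891164-90891193, plus strand: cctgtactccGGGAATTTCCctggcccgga
Cxcl3, chr5:90786018-90786047, plus strand: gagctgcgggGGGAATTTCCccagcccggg
Ccl9, chr11:83578652-83578681, minus strand: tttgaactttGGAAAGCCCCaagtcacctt
Ccrl2, chr9:111057555-111057584, minus strand: actttcccccGGGGCTTCCCctgagcgggg
The 3 Cxcl genes shared the same 10 bases, GGGAATTTCC, beginning at -97, -71 and -73 from the start site in Cxcl2, Cxcl1 and Cxcl3. Their signals differed: Cxcl2 was above background on all 4 arrays, Cxcl1 on 1 KO array and Cxcl3 on none. The match of Ccrl2 is at 1 of its listed start sites. The windows of Ccl3, Ccl6, Ccr1, Cxcr2 and Cxcr4 held no match, which says only that these letters are not in them, and a match does not show that the factor binds there.

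The 4 arrays shared 1 slide and 1 scan. Between 59.6% and 62.9% of spots were well above background, 0 were saturated, and the 75th percentile of processed signal lay between 310.5 and 422.1. Levels below are log2 signals relative to that percentile of the same array, so a level of 0 equals it; they are not per transcript length, and levels of different genes are not compared. Of the neutrophil precursor markers, 13 of 13 were above background on all 4 arrays. So were 14 of 15 monocyte and macrophage markers, so detection alone does not identify the cells. Differences are KO minus WT on this log2 scale with limma's standard error (SE), and adjusted p-values are limma's, by Benjamini-Hochberg over all 16978 genes tested. The number of arrays limits the precision, and with 2 samples a group an exact two-sided test over samples cannot give a p below 0.333. In RNA of a sorted population, fewer cells of a type and less RNA per cell cannot be told apart.

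Of the 53 members, 36 were above background on at least 1 array, 28 of them on all 4, and 17 on none. Over the whole array, 18213 of 27630 genes were above background on at least 1 array and 15633 on all 4. By list, 8 of 10 neutrophil members, 11 of 13 monocyte, 9 of 13 lymphoid and 8 of 16 stromal members were above background on at least 1 array. The undetected members of the neutrophil list were the chemoattractant Cxcl3 and the receptor Cxcr1. Ccl12 and Ccl22 of the monocyte list, Ccl1, Ccr4, Ccr8 and Cxcl11 of the lymphoid list, and Ccr1l1 were also undetected. So were the stromal members Ccl11, Ccl20, Cxcl13, Cxcl14, Cxcl15, Cxcl17, Cxcl5 and Cxcr7 (now Ackr3). Another 5 members were seen on 1 array and were not tested. Xcl1, a lymphocyte chemokine, and Ccl28, Cx3cl1 and Cxcl1 of the stromal list were above background on 1 of 2 KO arrays and on neither WT array. Ccl17, a dendritic cell ligand of Ccr4, was above background on 1 of 2 WT arrays and on neither KO array, and its WT mean was at least 1.25-fold higher than the KO bound. Such bounds compare the brighter group's mean with, for each array of the other group, the higher of the probe's own signal and the lowest signal among probes well above background. The remaining 31 members, each above background on 2 arrays or more, were tested; those detected in a single genotype passed through that genotype, so the counts below describe tested members and not all members.

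Most tested members of the neutrophil and monocyte lists had higher means in KO and most tested stromal members lower means, the monocyte list losing this with normexp background correction, and no member passed limma's test adjusted over all genes. Of the 31 tested members 21 were higher in KO and 10 lower, with a median difference of 0.29 against -0.02 over all genes tested. With normexp, 12 were higher and 19 lower, with a median of -0.06. Ligands had a median of 0.41 (18 tested) and receptors one of 0.21 (13 tested). At adjusted p under 0.05 limma called 0 of 31 members and 0% of the 16978 genes, 4043 of which had an unadjusted p under 0.05; the lowest adjusted p of any gene was 0.0838. At an unadjusted p under 0.05 there were 5 members higher in KO (Ccl3, Ccl6, Ccl8, Ccl9 and Ccl24) and 3 lower (Cxcl12, Ccl19 and Ccl25), all of them ligands, against 11.8% of all genes higher and 12% lower. These 8 members (25.8%, against 23.8% of all genes) became 13 (41.9%, against 34.8%) with normexp and 16 (51.6%, against 20%) without KO replicate 2. Ccl8 is counted among them although it passed the filter through its KO arrays alone. Both KO arrays lay above both WT arrays in 13 members and below them in 4, against 28% and 30.5% of all genes. When limma's prior variance was allowed to follow the mean signal (an intensity trend), 4 members passed, Ccl3 and Ccl6 higher and Cxcl12 and Ccl25 lower, against 5.45% of all genes higher and 4.13% lower. With the trend 0 members passed without WT replicate 1 and 0 without WT replicate 2, fits in which 2 and 3 of all genes passed, against 1627 with all arrays. Without WT replicate 1 Ccl3 was at 1.28 and Ccl6 at 1.09, both with an adjusted p of 0.0515. Without KO replicate 1 Ccl3 was at 0.93 and Ccl6 at 0.84, and without KO replicate 2 they were at 1.14 and 0.98.

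**Figure D1:**
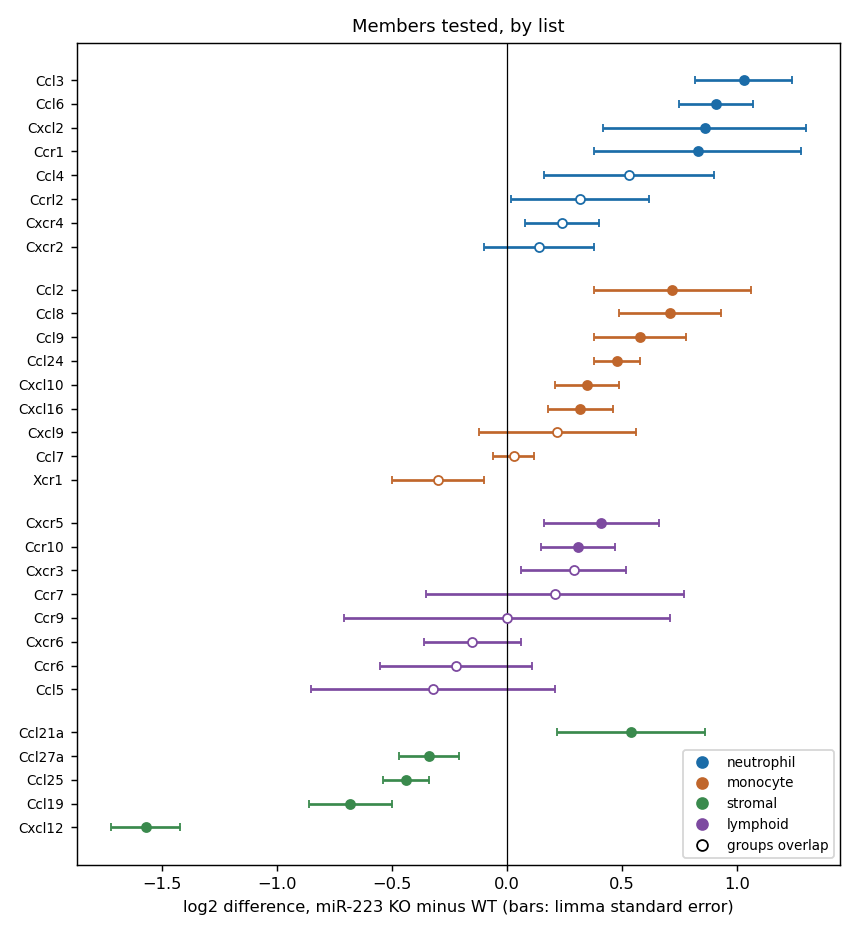
Differences of tested members, grouped by list, as log2 KO minus WT on the horizontal axis with bars of 1 limma standard error; open points are members whose WT and KO arrays overlap. All 8 neutrophil members lie above 0, where Ccr1 turns to -0.02 with normexp background correction and Cxcr2 to -0.18 without KO replicate 2, and 4 of 5 stromal members lie below 0.

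Neutrophil members were the list with 8 of 8 tested genes higher in KO, at a median difference of 0.68, with a range from 0.14 to 1.03. The lists were drawn up with earlier results of these data known, so a shared direction within a list is a description and not a test. Nor is it a trait of neutrophils, since members such as Ccl3 and Ccl6 are not theirs alone. Ccr1 was not higher with normexp (-0.02), where the median of the list was 0.41, and Cxcr2 not without KO replicate 2 (-0.18). Without WT replicate 2 the median was 0.37. The macrophage inflammatory protein Ccl3, a ligand of Ccr1, was read by a probe at chr11:83461358-83461417 (mm9). Ccl3 gave levels of 2.02 and 1.53 on the WT arrays and 2.91 and 2.70 on the KO arrays. Both KO arrays were above both WT arrays, and Ccl3 was the neutrophil member with the widest gap between genotype means, 1.03 ± 0.21 (SE), or 2.05-fold (adjusted p = 0.114, and 0.0212 with the trend). This is the probe that holds the seed match printed above.

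Ccl6, a chemokine of myeloid cells found in rodents and a ligand of Ccr1 (chr11:83401997-83402056, mm9), gave 2.41 and 2.06 in WT and 3.22 and 3.08 in KO. Both KO arrays lay close together and clear of the WT arrays, 0.91 ± 0.16 apart, or 1.88-fold (adjusted p = 0.0994, and 0.014 with the trend). For Ccl4, a chemokine that is often made together with Ccl3, the levels were 0.43 and -0.08 in WT and 1.13 and 0.27 in KO. Here the lower KO array lay below the higher WT array, and the difference was 0.53 ± 0.37 (adjusted p = 0.441). Without single arrays it ranged from 0.10 (without KO replicate 1) to 0.95 (without KO replicate 2).

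The Cxcr2 ligand Cxcl2 was read at -1.61 and -2.71 in WT and -1.56 and -1.05 in KO. Its groups did not overlap, but WT replicate 1 and KO replicate 1 lay close together, and the difference of 0.86 ± 0.44 had an adjusted p of 0.325. Over the 14 alternatives in processing and arrays it ranged from 0.31 to 1.40. Cxcl3, a second Cxcr2 ligand, was not well above background on any array.

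Of the neutrophil list's receptors, Cxcr4, which retains neutrophils in marrow, gave 2.46 and 2.83 in WT and 2.81 and 2.97 in KO, with overlapping groups and a difference of 0.24 ± 0.16 (adjusted p = 0.428). A second Cxcr4 probe gave 1.95 and 1.81 on the WT arrays and 1.98 and 2.13 on the KO arrays, a difference of 0.18 with groups that did not overlap. Cxcr2, the receptor that draws neutrophils out of marrow, gave 2.14 and 2.13 in WT and 1.96 and 2.60 in KO with its brighter probe, so the WT arrays lay between the KO arrays (0.14 ± 0.24, adjusted p = 0.755). The dimmer Cxcr2 probe, which lies 5′ of the brighter one, gave -0.47 and -0.34 in WT and 0.04 and 0.40 in KO, a separation of 0.63 that the brighter probe did not show. The probes of Cxcr2 thus disagreed on whether the groups overlap.

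Ccr1, the receptor for Ccl3 and Ccl6, was above background on 1 of 2 WT arrays and on both KO arrays. The levels were -5.19 and -3.97 in WT and -3.71 and -3.79 in KO. Most of the difference of 0.83 ± 0.45 (adjusted p = 0.338) came from WT replicate 1, where the probe was at background, and it was -0.02 with normexp background correction. Ccrl2, an atypical receptor that binds chemerin and does not signal through G proteins, gave -0.23 and -0.84 in WT and 0.06 and -0.48 in KO. These arrays overlapped, at 0.32 ± 0.30 (adjusted p = 0.556), and a second Ccrl2 probe gave 0.21.

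**Figure D2:**
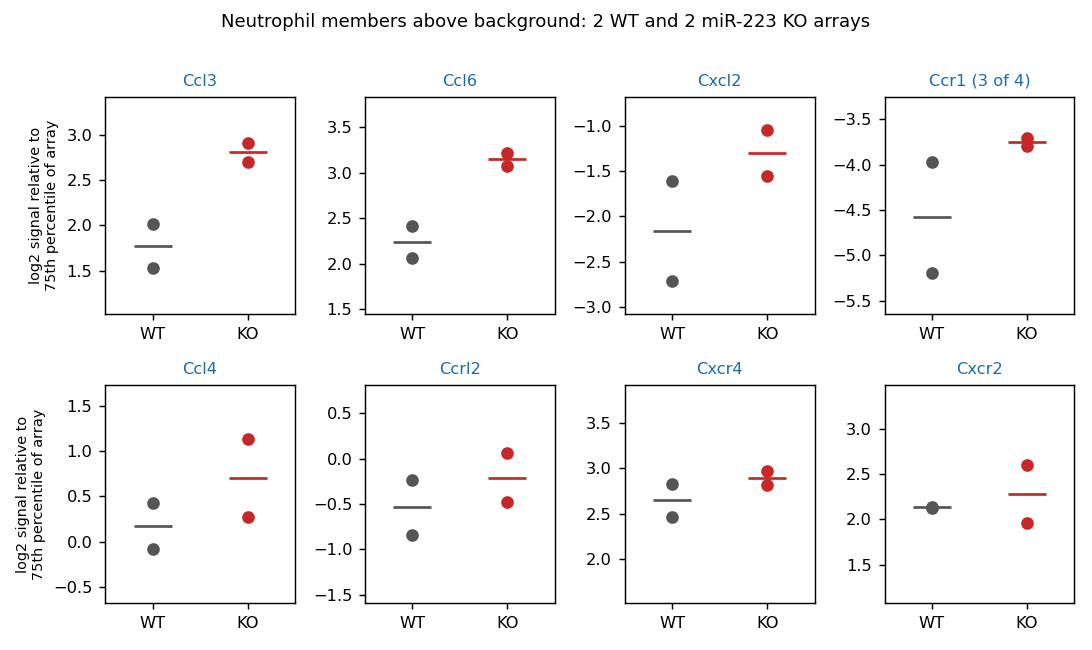
Levels of the 8 neutrophil members above background on each array, as log2 signal relative to the array's 75th percentile (vertical axes cover the same span), with WT in grey, KO in red and a line at each mean; 3 of 4 marks Ccr1, which was above background on 3 arrays. Both KO arrays lie above both WT arrays for Ccl3, Ccl6, Cxcl2 and Ccr1, and the groups overlap for Ccl4, Ccrl2, Cxcr4 and Cxcr2.

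Monocyte members had 8 of 10 tested genes higher in KO and 2 lower, with a median of 0.34, but with normexp background correction the median was -0.10. Ccl9, a myeloid ligand of Ccr1 (chr11:83388223-83388282, mm9), gave 2.78 and 2.56 in WT and 3.48 and 3.02 in KO. Both KO arrays were above both WT arrays, by 0.58 ± 0.20, or 1.5-fold (unadjusted p = 0.0462, adjusted p = 0.202). Ccl24, an eotaxin that attracts eosinophils through the receptor they carry, gave -4.46 and -4.64 in WT and -4.07 on both KO arrays. Its groups were separated by 0.48 ± 0.10 (unadjusted p = 0.00955, adjusted p = 0.117), and the difference was -0.08 with normexp, so its direction depends on how background is removed. A second Ccl24 probe, above background on 3 arrays, gave 0.62.

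Ccl8, a monocyte chemoattractant, was not well above background on either WT array, at -5.97 and -6.07, and was above it on both KO arrays, at -5.03 and -5.58. In the main processing KO was therefore at least 1.17-fold higher. Limma's adjusted p of 0.174 belongs to the unbounded difference of 0.71, and Ccl8 passed the filter through its KO arrays alone. With normexp the sign turned to -0.12, so the bound does not extend to that processing. Ccl2, the main attractant of monocytes, was 0.72 ± 0.34 higher in KO with separated groups (0.15 and -0.53 in WT, 0.84 and 0.22 in KO; adjusted p = 0.294). Cxcl10, an interferon-induced ligand of Cxcr3, gave -0.40 and -0.73 on the WT arrays and -0.19 and -0.25 on the KO arrays, 0.35 ± 0.14 apart. Cxcl16, a membrane-bound ligand of Cxcr6, gave -2.88 and -2.91 on the WT arrays and -2.41 and -2.73 on the KO arrays, 0.32 ± 0.14 apart. In both genes the groups were separated, and neither had an unadjusted p under 0.05. The groups overlapped for Cxcl9 (0.22), Ccl7 (0.03) and Xcr1 (-0.30). Cxcl9 and Ccl7 turned to -0.12 and -0.25 with normexp. Xcr1, a receptor of cross-presenting dendritic cells, kept its sign in 14 of 14 alternatives. A second Xcr1 probe, above background on 1 array, had the opposite sign (0.93). A second Ccl7 probe, also above background on 1 array, gave 1.02.

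Summed signals of markers of other myeloid cells were also higher on both KO arrays than on both WT arrays. Between the WT arrays, the monocyte and dendritic sums were higher in replicate 2, whereas Ccl2 and Ccl9 were higher in replicate 1. Between the KO arrays, these sums and both ligands were higher in replicate 1. The 15 monocyte and macrophage markers had a summed signal, in multiples of the array's 75th percentile, of 55.2 to 56.5 in WT and 80.4 to 90.2 in KO. Of these markers 11 were higher and 6 passed with the intensity trend, all higher, among them Adgre1 at 0.97; the resident macrophage genes C1qa, C1qb and C1qc overlapped between genotypes, and Cd163 was lower on both KO arrays (-0.87 ± 0.15, adjusted p = 0.0522 with the trend). The 8 dendritic cell markers summed to 45.4 to 52.3 in WT and 64.8 to 82.3 in KO. Of these, the MHC class II genes H2-Aa (0.69) and H2-Ab1 (0.65) passed with the trend. Flt3 (0.15), Batf3 (0.35), Zbtb46 (-0.07) and Siglech (-1.34) overlapped between genotypes, so the sum does not speak for the whole list. The 10 eosinophil, basophil and mast cell markers summed to 3.42 to 3.64 in WT and 5.9 to 7 in KO. Within the latter list the eosinophil genes Prg2, Prg3, Epx and Siglecf passed with the trend, all higher (0.87 to 1.51), whereas the basophil gene Prss34 was at -0.92 and Mcpt8 at -0.15. All 15, all 8 and 9 of 10 of these markers were above background on at least 1 array. Neutrophil precursor markers summed to 6620 to 7170 in WT and 6130 to 6900 in KO, but the early granule protease genes Elane (0.50), Prtn3 (0.72) and Ctsg (0.63) passed with the trend. The part of these cells, and of the stage of the precursors, in the differences of Ccl3, Ccl6, Ccl9 and Ccl2 was not tested.

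The list of 18 heat shock and immediate early genes, known to react to handling and to stimulation, was also higher on both KO arrays. Their summed signal was 192 to 231 in WT and 300 to 317 in KO, 16 were higher, and 10 passed with the trend, all higher. Those with the smallest p were Hspa1a at 1.69 ± 0.08, Hspa1b at 1.54 ± 0.11, Jun at 1.23 ± 0.10 and Junb at 0.71 ± 0.09. The part of this list in the chemokine differences was not tested. The 2 that were lower were Dnajb1 (-0.08) and Nr4a1 (-0.04), neither of which passed.

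**Figure D3:**
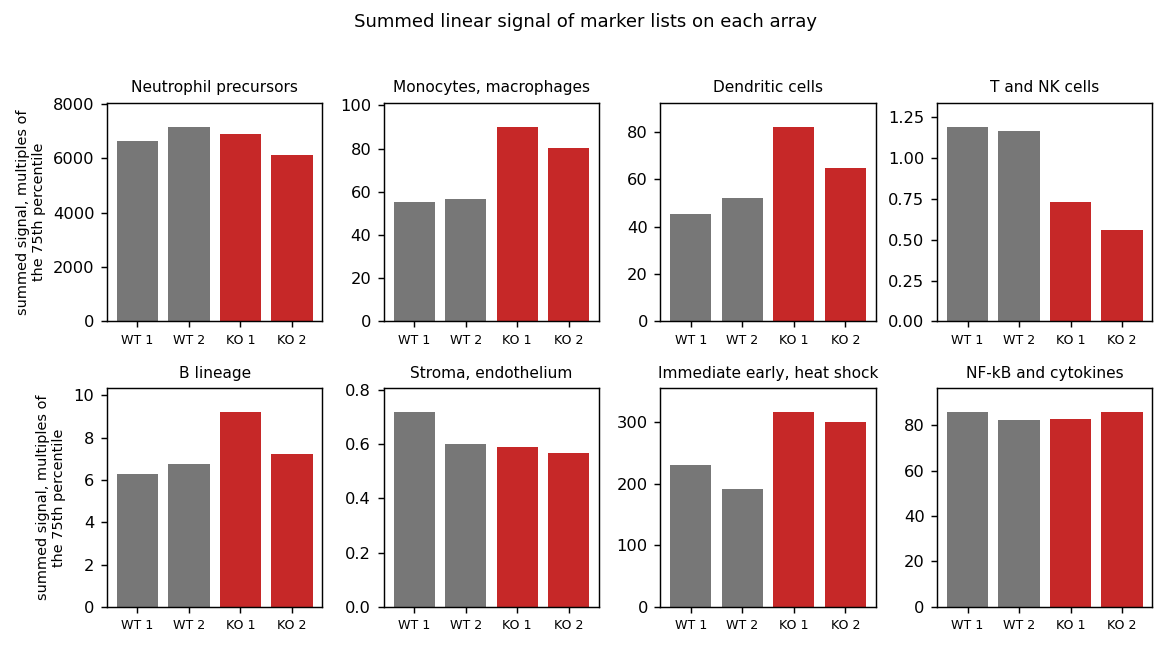
Summed linear signal of 8 gene lists on each of the 4 arrays, in multiples of the array's 75th percentile, with WT in grey and KO in red; each panel has its own axis starting at 0. The monocyte, dendritic, B lineage and immediate early sums are higher on both KO arrays than on both WT arrays. Within the B lineage list, Cd79b is at 0.46 and the other 5 of 6 tested genes are lower in KO. Within the dendritic list, Flt3, Batf3, Zbtb46 and Siglech overlap between genotypes. The T and NK sum is lower, with Cd3d at -1.43 and the other 6 tested genes overlapping, and the NF-kB sum overlaps.

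Stromal members were mostly lower, with 4 of 5 tested genes lower in KO and a median of -0.44. In all 5 the WT and KO arrays did not overlap, against 58.6% of all genes tested. Ccl21a, separated narrowly, passed the filter through its KO arrays alone. Cxcl12, the stromal ligand of Cxcr4, had the widest gap between genotypes of the 31 tested members, though not with normexp. The probe that detected it (chr6:117131227-117131286, mm9) gave -2.81 and -2.95 in WT and -4.29 and -4.61 in KO. Both KO arrays were far below both WT arrays, the difference being -1.57 ± 0.15, with WT 2.97-fold higher (adjusted p = 0.0838, and 0.0148 with the trend). With normexp the difference was -0.65 with an adjusted p of 0.0102, and Ccl3 was at 1.09. A second Cxcl12 probe, which the deposited annotation assigns to another RefSeq transcript of the gene and which lies 6.69 kb away, was not well above background on any array. The difference in Cxcl12 therefore rests on 1 probe and 1 annotated transcript.

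Ccl25, a ligand of Ccr9 made by thymic and gut epithelium, gave -0.19 and -0.22 in WT and -0.72 and -0.56 in KO. Arrays of each genotype lay close together, and KO was lower by -0.44 ± 0.10 (adjusted p = 0.122, and 0.049 with the trend). A dimmer Ccl25 probe also gave a lower KO mean (-0.22). Ccl19, a Ccr7 ligand of lymphoid stroma, gave -3.35 and -3.22 in WT and -4.18 and -3.76 in KO. This was a separation of -0.68 ± 0.18 (unadjusted p = 0.0194, adjusted p = 0.143), and a second Ccl19 probe gave -0.97.

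Ccl27a, a skin ligand of Ccr10, gave -1.64 and -1.42 on the WT arrays and -1.78 and -1.98 on the KO arrays, a separation of -0.34 ± 0.13 (adjusted p = 0.228). Ccl21a, the other Ccr7 ligand, was the stromal member higher in KO. It was not well above background on the WT arrays (-5.80 and -5.61) and was above it on the KO arrays (-4.74 and -5.58). By the group means KO was at least 1.28-fold higher in the main processing. Limma's adjusted p of 0.372 belongs to the unbounded difference of 0.54. KO replicate 2 lay close to the WT arrays: without KO replicate 1 the difference was 0.12, and with normexp it was -0.18. The mouse genome holds near-identical copies of Ccl19, Ccl21a and Ccl27a, which their probes could also detect, and the Ccl27a gene overlaps Il11ra1 in RefSeq, so these values are uncertain as to source.

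Markers of stromal, bone-forming and endothelial cells were low in these samples. Of 14, 7 were not well above background on any array, against 9417 of the 27630 genes on the array. Among these 7 were Lepr and Kitl, both known from the marrow stromal cells rich in Cxcl12. The summed signal of the list was 0.6 to 0.718 in WT and 0.565 to 0.587 in KO. The bone gene Bglap, above background on 2 arrays, gave -3.49 and -4.75 in WT and -6.55 and -5.83 in KO, and the collagen gene Col1a2 was lower in KO by -0.63 ± 0.12; neither passed with the trend. Pdgfrb was higher on both KO arrays (0.44 ± 0.14), and of the 7 tested markers 3 were higher and 4 lower, with a median of -0.10. The summed signal of erythroid markers was 2.57 to 2.71 in WT and 1.42 to 1.8 in KO; of 5 tested, 4 were lower, of which Alas2, Slc4a1 and Hemgn passed with the trend, and Ermap was at 1.05. The part of such cells in the differences of Cxcl12 and the other stromal members was not tested.

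**Figure D4:**
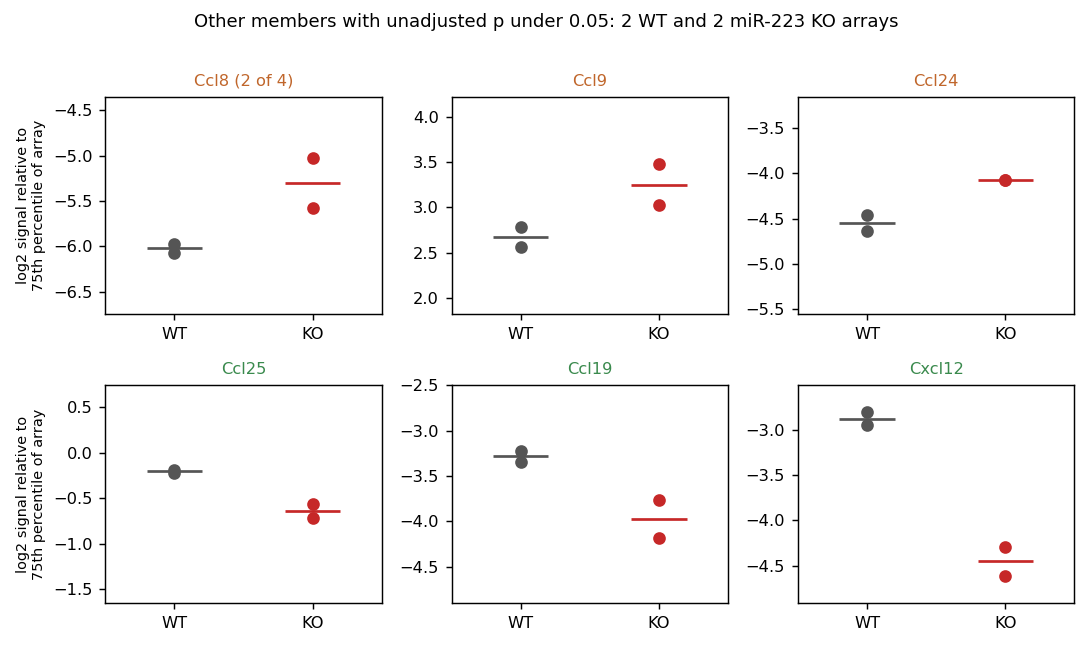
Levels of the 6 members outside the neutrophil list with an unadjusted p under 0.05, on each array, as log2 signal relative to the array's 75th percentile, with WT in grey, KO in red and a line at each mean; 2 of 4 marks Ccl8, which was above background on the 2 KO arrays. The monocyte ligands Ccl8, Ccl9 and Ccl24 (top) are higher on both KO arrays, Ccl8 and Ccl24 turning to -0.12 and -0.08 with normexp, and the stromal ligands Ccl25, Ccl19 and Cxcl12 (bottom) are lower on both.

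Lymphoid members were split, with 4 tested genes higher and 4 lower and a median of 0.10. None had an unadjusted p under 0.05. Cxcr5, the follicle-homing receptor of B cells (0.41 ± 0.25), and Ccr10, a receptor of skin-homing T cells and plasma cells (0.31 ± 0.16), were higher on both KO arrays, and turned to 0.00 and -0.10 with normexp. The other 6 overlapped, at 0.29 for Cxcr3, 0.21 for Ccr7, 0.00 for Ccr9, -0.15 for Cxcr6, -0.22 for Ccr6 and -0.32 for Ccl5. The Ccr10, Cxcr5 and Cxcr6 genes each overlap another gene in RefSeq (Cntnap1, Bcl9l and Fyco1).

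For several lymphoid members the KO arrays differed from each other more than the genotypes did. Ccr9, a receptor of lymphocytes and plasmacytoid dendritic cells, gave -1.46 and -1.89 in WT but -0.73 in KO replicate 1 and -2.63 in KO replicate 2. The T and NK cell chemokine Ccl5 gave -0.15 and -0.69 in WT, -0.07 in KO replicate 1 and -1.41 in KO replicate 2, and Ccr7, which guides cells to lymph nodes, gave -3.89 and -3.95 in WT, -2.95 in KO replicate 1 and -4.48 in KO replicate 2. In each case KO replicate 1 was the highest of the 4 arrays and KO replicate 2 the lowest. The Ccr9 difference was accordingly 0.95 without KO replicate 2 and -0.96 without KO replicate 1. The median of the lymphoid list was 0.54 without KO replicate 2 and -0.28 without KO replicate 1. KO replicate 2 was also the lowest array for the cytotoxic cell gene Gzma (-5.33, against -3.39 in KO replicate 1) and for the plasmacytoid dendritic cell gene Siglech (-4.26, against -2.16), but both genes also varied in WT (Gzma -3.18 and -4.10, Siglech -0.49 and -3.26) and were highest in WT replicate 1. The 8 T and NK markers summed to 1.16 to 1.19 in WT and 0.556 to 0.728 in KO; Cd3d was at -1.43, the groups of the other 6 tested overlapped, and the median of the list was -0.08. The 7 B lineage markers summed to 6.26 to 6.77 in WT and 7.23 to 9.22 in KO. Of the 6 tested, Cd79b was higher (0.46, adjusted p = 0.0485 with the trend) and 5 were lower. The part of these cell types in the values of Ccr9, Ccl5 and Ccr7 was not tested.

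Set beside their receptors, the ligands fell into pairs in which both sides were measured and pairs in which one was not. Ccr1 was at 0.83, with the limits given above, and of its ligands Ccl3, Ccl6 and Ccl9 were at 1.03, 0.91 and 0.58, Ccl7 at 0.03 and Ccl5 at -0.32. For Cxcr4 the receptor was at 0.24 with overlapping groups while its ligand Cxcl12 was at -1.57. Ccr7 was at 0.21 and its ligands Ccl19 and Ccl21a at -0.68 and 0.54, and Ccr9 was at 0.00 with its ligand Ccl25 at -0.44. The value of Ccl21a, which passed the filter through its KO arrays alone, was -0.18 with normexp. Receptors whose main ligand was not well above background on any array were Cxcr5, whose ligand is Cxcl13, and Ccr6, whose ligand is Ccl20. Differences of a receptor and its ligand were not tested against each other.

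Many members lie in clusters, defined here as 3 or more members with neighbouring probes under 500 kb apart on mm9. In the cluster of 139 kb on chromosome 11 that runs from Ccl5 through Ccl9, Ccl6 and Ccl3 to Ccl4, all 5 members were tested. Ccl9, Ccl6, Ccl3 and Ccl4 had differences of 0.58, 0.91, 1.03 and 0.53, and Ccl5 at its end was at -0.32, the groups of Ccl4 and Ccl5 overlapping. In the second cluster on that chromosome, Ccl2 was higher by 0.72 while Ccl7, 9.9 kb from Ccl2, was at 0.03. The second Ccl7 probe, above background on 1 array, gave 1.02. Ccl8 was at 0.71 without the bound, having passed the filter through its KO arrays alone, and at -0.12 with normexp. Ccl11, Ccl12 and Ccl1 were not well above background. In the 144 kb cluster on chromosome 5, Cxcl2 was the 1 member of 5 that was tested, and Cxcl5, Cxcl3 and Cxcl15 were undetected. On chromosome 9, Ccr1 (0.83, but -0.02 with normexp) lay in a cluster with Ccr9 (0.00), Cxcr6 (-0.15) and Xcr1 (-0.30).

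**Figure D5:**
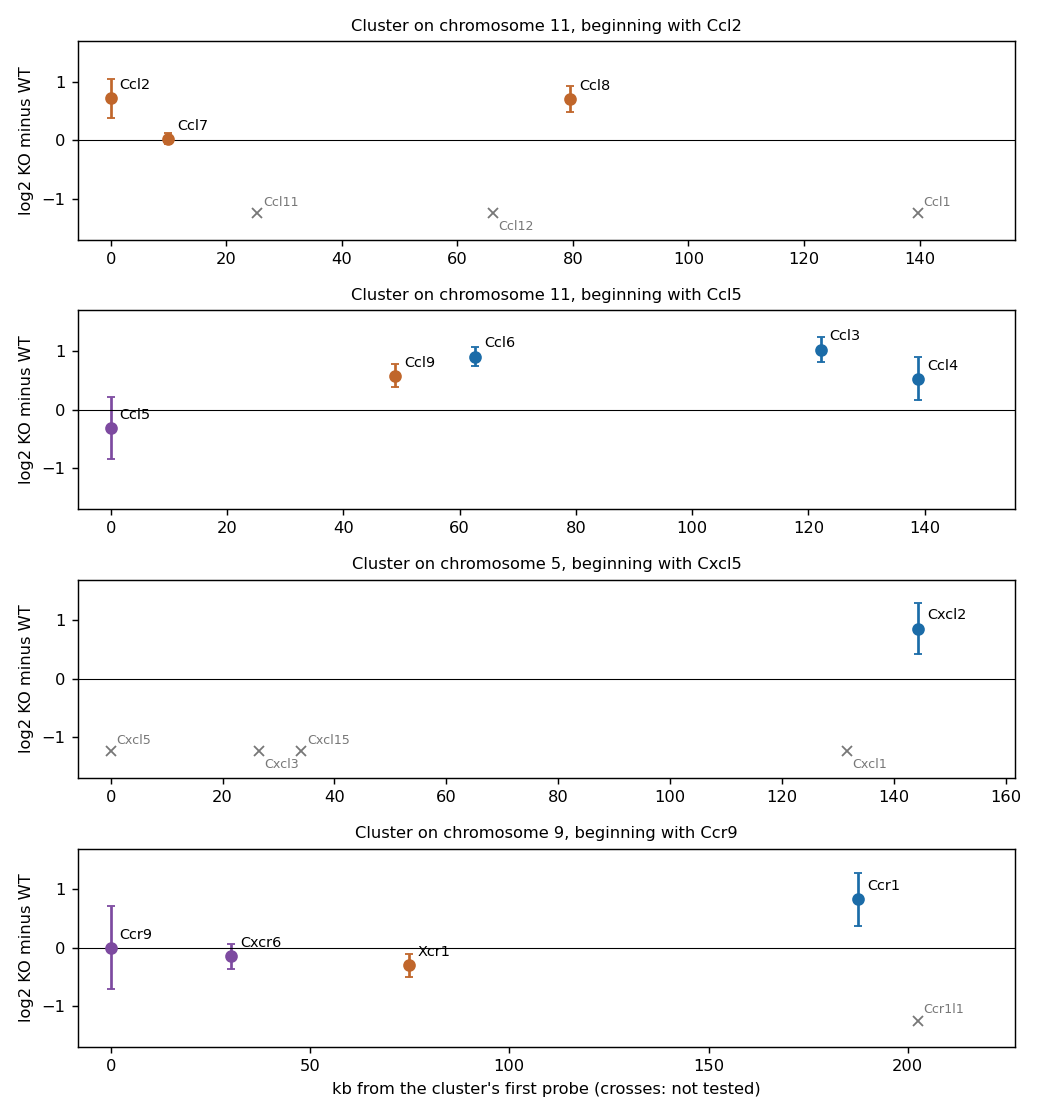
Differences of members in 4 clusters, as log2 KO minus WT with bars of 1 limma standard error, against distance in kb from the cluster's first probe; colours mark the lists (blue neutrophil, orange monocyte, purple lymphoid) and crosses mark members not tested, drawn at an arbitrary height. Ccl9, Ccl6, Ccl3 and Ccl4 lie between 0.53 and 1.03, and Ccl7 and Ccl5 in the chromosome 11 clusters at 0.03 and -0.32.

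Genes around the members were given by lists chosen for their function. Of 13 relatives outside the naming rule, which include platelet chemokines, scavenger receptors and chemerin, 9 were tested, 8 higher and 1 lower, with a median of 0.12. The chemokine-like transmembrane gene Cmtm3 passed with the trend (0.68 ± 0.18, adjusted p = 0.0412). The scavenging receptor Ackr2, above background on 2 arrays, gave -5.97 and -5.99 in WT and -5.47 and -5.59 in KO. Cx3cr1, the fractalkine receptor, was at 0.59 ± 0.22, the platelet chemokine Pf4 at 0.65 ± 0.59 with overlapping groups, and the chemerin receptor Cmklr1 at -0.25 ± 0.11, none of which passed. The 6 megakaryocyte and platelet markers, Pf4 among them, summed to 0.865 to 0.997 in WT and 1.67 to 2.49 in KO. Of the 3 tested, Gp9 (1.19) passed with the trend, and Pf4 and Itga2b overlapped between genotypes.

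In the signalling pathway downstream of the receptors (39 genes, all tested) 18 were higher and 21 lower, with a median of -0.01. With the trend 2 of 39 passed, a share near the 5.45% of all genes called higher, and both were higher: Gng2, a G protein gamma subunit, at 1.14 ± 0.08 (adjusted p = 0.00356), and Grk5, a kinase that switches receptors off, at 1.02 ± 0.09 (adjusted p = 0.0127). Gng2 gave 2.36 and 2.29 in WT and 3.48 and 3.44 in KO, and Grk5 gave -2.64 and -2.65 in WT and -1.56 and -1.7 in KO, so the replicates of each lay close together. Rac1, a GTPase that drives migration, was at 0.22 ± 0.08. Those with the smallest p among the lower genes were Crkl (-0.32), Grk6 (-0.30), Rgs19 (-0.25) and Gnb2 (-0.32), none of which passed.

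The NF-kB list, with subunits, feedback inhibitors and cytokines induced alongside chemokines, had 15 of 17 genes tested, 10 higher and 5 lower, with a median of 0.10. Its summed signal was 82.3 to 86.0 in WT and 82.7 to 85.8 in KO. Icam1, an adhesion molecule, was higher by 0.80 ± 0.17 and passed with the trend (adjusted p = 0.028), and Il1b was at 0.79 ± 0.25 and did not (adjusted p = 0.0676 with the trend). The inhibitors Nfkbia (-0.10), Nfkbiz (0.05) and Tnfaip3 (0.22) and the cytokine Tnf (0.10) overlapped between genotypes.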

How the data were processed

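Feature extraction was done with Agilent Feature Extraction 10.5.1.1 per the file headers, with probe annotation on mm9. Processed spot intensity as deposited has background removed and is unscaled across arrays per the file headers; mean and local background intensities stand beside it. The deposited value table of the authors is in log2 units: each column followed the log2 processed signal up to an array constant (Pearson's r 0.9999 or higher across 41174 probes, every column median 4.68), and it served as an alternative. From the scanner values, log2 processed signals had the array's 75th percentile over non-control spots subtracted, and spots of a probe were averaged. The filter kept probes that were well above background on 2 arrays or more, and the brightest probe stood for its gene (16978 genes). Genotypes were compared with limma 3.58.1 in R 4.3.3 (lmFit, eBayes without trend or block, Benjamini-Hochberg over all genes), a procedure tested on simulated data. The members and lists were chosen with earlier results of these data known. Of the 67 member probes, 64 were named through their accession in a RefSeq table of GRCm38.p6, whose coordinates serve only the printed miR-223 and promoter sequences; 21 tested members had a promoter in it. The counts cover all 53 members, of which 1 is not reported here by its values; values on each array are given for neutrophil members above background and for others with an unadjusted p under 0.05, with more where arrays disagree, which was chosen after the values were seen. In related lists up to 4 genes with the smallest p in each direction are named; NF-kB inhibitors were added after seeing the values. The alternatives were an intensity trend, normexp (offset 50, without control spots), quantile normalization, median scaling, the deposited values, 2 other filters, the mean over probes, no outlier spots, a replicate block, and each array left out; the trend was combined with the last 2 after seeing the data.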

Additional observations from a re-analysis of the deposited data

How the results depend on the processing

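The count of members at adjusted p under 0.05 (limma) was 0 in the main setting, 4 with an intensity trend, 6 with normexp, 1 (Cxcl12) with the deposited values, 1 (Cxcl12) with probes above background on all 4 arrays, and 0 in the other alternatives, including without each array in turn. With the trend the count varied when arrays were left out. It was 6 with the trend and the replicate block, where Ccl2, Ccl4 and Ccl9 passed and Ccl25 did not (adjusted p = 0.0581). The replicate block without the trend changed no call (0 members). Over all 16978 genes tested, 1627 were called with the trend, 1885 with normexp, 61 with the deposited values and 1616 with trend and block. The filter for all 4 arrays left 15621 genes, of which 125 were called. The labels number replicates in both genotypes, but same-numbered arrays did not deviate together (r = 0.0386 across genes, which are not independent replicates), so the numbers are not taken to pair samples. Members at unadjusted p under 0.05 numbered 8, and 13 with normexp; without single arrays the range was 6 to 16. The median of neutrophil members was 0.41 with normexp and ranged from 0.37 to 0.74 without single arrays; that of monocyte members was -0.10 with normexp; that of lymphoid members ranged from -0.28 to 0.54. Single members changed sign as follows, while 15 of the 31 tested kept theirs throughout. With normexp: Ccl21a (-0.18), Ccl24 (-0.08), Ccl7 (-0.25), Ccl8 (-0.12), Ccr1 (-0.02), Ccr10 (-0.10), Ccr7 (-0.06), Cxcl9 (-0.12) and Cxcr5 (0.00). Ccr9 turned to 0.06 with quantile normalization, 0.07 with median scaling and 0.08 with the deposited values. Without single arrays in turn, the lowest and highest differences of members that changed sign were -0.99 and 0.35 for Ccl5, -0.04 and 0.10 for Ccl7, -0.64 and 0.21 for Ccr6, -0.56 and 0.98 for Ccr7, -0.96 and 0.95 for Ccr9, -0.22 and 0.66 for Cxcl9, -0.18 and 0.46 for Cxcr2, 0.00 and 0.58 for Cxcr3, and -0.39 and 0.08 for Cxcr6. With normexp 12 members were higher and 19 lower. The causes were not tested. Median differences over all genes moved from -0.017 to -0.082 with normexp and to 0.062 with median scaling. Members near background, such as Ccl8, Ccl21a and Ccr1, are limited by signal over background, and 17 members were not well above background on any array.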
